A study of Arabidopsis thaliana with 18 samples.

Results

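The clade A protein phosphatases 2C (PP2Cs) of Arabidopsis form a family of 9 genes, ABI1 (AT4G26080), ABI2 (AT5G57050), HAB1 (AT1G72770), HAB2 (AT1G17550), AHG1 (AT5G51760), PP2CA (AT3G11410), HAI1 (AT5G59220), HAI2 (AT1G07430) and HAI3 (AT2G29380), and all 9 were found by their locus identifiers among the 33341 loci of the mRNA-seq count files. They were taken as a whole family and not by a cut on their values, but with earlier results of these data known. Of the 9, 7 passed the filter on low counts, a level above 1 CPM (the count scaled to a common library size) in 3 or more of 12 libraries, and were tested together with 17986 loci in all. AHG1 and HAI3 did not pass and are given as counts only.

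Clade A PP2Cs hold the ABA pathway off. Without ABA they dephosphorylate SnRK2 kinases, which then stay inactive, and with ABA the PYR/PYL/RCAR receptors bind the hormone and the phosphatase together, so that the kinases are released and phosphorylate ABF/ABI5 transcription factors and ion channels of the guard cell. The phosphatase genes are themselves known to be induced by ABA, which closes a negative feedback loop, and ABA is known to rise in leaves under drought and excess light (EL).

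The mRNA-seq libraries came from wild-type Col-0 plants (WT) of 3 weeks, each library from leaves 4 to 9 of 1 plant, with 3 plants per group. Naïve plants (N) grew at 100 to 150 µmol photons per square metre and second, and primed plants (P) had in addition been given a week of recurring EL, 1 hour at 1000 µmol on 3 occasions a day. Naïve plants given EL for the first time, 1 hour at 1000 µmol as the triggering stress, are N+T. Primed plants given a further EL treatment as the triggering stress are P+T. MethylC-seq, which reads cytosine methylation base by base after bisulfite treatment, was done on 3 unstressed WT plants and on 3 plants of strs2, a T-DNA insertion line in the same background that is represented by a single allele. These plants were likewise 3 weeks old and grown at 100 to 150 µmol, and leaves 4 to 9 were taken. The tissue was a mixture of leaf cell types, so fewer cells of a type and less RNA per cell cannot be told apart.

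The libraries held between 3665503 (N+T-r3) and 33081543 counts (P-r3), and N+T-r1, with 7647236, was the shallowest of those tested. N-r3 and N+T-r3 were left out of the tests by the authors because they lay apart from their groups. The remaining 10 libraries were tested here unless stated otherwise. Of 5 genes chosen to check the labels for triggering, HSP101, a heat shock chaperone, was at 951 to 4222 CPM in the 6 triggered libraries against 0.94 to 353 CPM in the 6 untriggered ones, and the ascorbate peroxidase gene APX2 at 1.05 to 13.1 against 0 to 0.221 CPM, the omitted libraries included. ELIP1, ELIP2 and ZAT10, which are also known to respond to EL, overlapped between triggered and untriggered libraries. Summed levels were between 21556 and 54776 CPM for 4 mesophyll markers and between 26.6 and 85.6 CPM for 5 guard cell markers, with no marker of these at 0 in a whole group. The 5 seed markers together reached at most 0.318 CPM in a library. In each group 3 of them had no count, though not the same 3 in every group. The lowest mesophyll sum was that of N+T-r1, and the lowest guard cell sum was that of N-r3. Among the tested libraries N+T-r1 was also the lowest for guard cell markers, at 48.3 CPM. N-r3 was above the other naïve libraries in all 7 testable phosphatases as well.

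The ABA-responsive element (ABRE) with the core ACGTG is the best known binding site of the ABF/ABI5 factors. It was searched on both strands in the 250 bases before the annotated gene start of the reference annotation (RefSeq, TAIR10.1), where a palindromic CACGTG counts as 2 overlapping matches. PP2CA held 5 matches, HAI2 held 4, HAB2, AHG1 and HAI3 held 2 each and HAB1 held 1, while ABI1, ABI2 and HAI1 held 0. At least 1 match was present in 22.9% of the 27443 promoters of protein-coding genes. Within 1000 bases before the gene start HAB1 and HAI2 held 6 each, PP2CA held 5, AHG1 and HAI3 held 3 each and HAB2 held 2. There ABI1 and ABI2 held 1 each and HAI1 held 0, against 54.4% of genes with at least 1. The 3 promoters printed, of 250 bases, belong to HAB1, the member that passed the test after triggering, and to PP2CA and HAI2, the members with the most matches in these 250 bases. Capitals mark the ABRE core on either strand, and each sequence ends at the base before the gene start.
HAB1 (chr1:27389698-27389947, forward strand): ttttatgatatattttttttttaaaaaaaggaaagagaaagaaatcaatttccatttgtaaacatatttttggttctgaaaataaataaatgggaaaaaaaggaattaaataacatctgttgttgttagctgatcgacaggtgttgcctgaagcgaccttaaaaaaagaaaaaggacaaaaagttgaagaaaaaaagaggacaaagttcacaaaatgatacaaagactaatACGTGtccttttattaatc
PP2CA (chr3:3585851-3586100, reverse strand): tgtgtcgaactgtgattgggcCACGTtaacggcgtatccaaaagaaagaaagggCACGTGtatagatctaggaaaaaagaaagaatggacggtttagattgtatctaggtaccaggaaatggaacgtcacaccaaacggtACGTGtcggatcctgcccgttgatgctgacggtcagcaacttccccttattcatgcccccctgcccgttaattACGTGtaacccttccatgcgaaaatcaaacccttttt
HAI2 (chr1:2282829-2283078, reverse strand): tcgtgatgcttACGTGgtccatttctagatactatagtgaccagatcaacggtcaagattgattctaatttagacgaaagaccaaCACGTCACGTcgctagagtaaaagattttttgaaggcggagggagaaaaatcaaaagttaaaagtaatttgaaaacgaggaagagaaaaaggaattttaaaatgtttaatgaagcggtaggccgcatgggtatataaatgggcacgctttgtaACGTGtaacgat

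For HAI1, 442 bases lie between the annotated start and the coding sequence, and 3 matches fell within the 500 bases before its first coding base. In that window PP2CA and HAI2 held 5 each, AHG1 held 4 and HAI3 held 2, while ABI1, ABI2, HAB1 and HAB2 held 0, against 34.9% of genes with at least 1. In ABI1, ABI2, HAB1 and HAB2 the coding sequence begins 548, 598, 1050 and 647 bases after the annotated start. For them the window lay wholly after that start and covered none of the promoter. This window was chosen after the first had been looked at. The nearest site of HAI1, 316 bases before its first coding base, is shown with CACGTG in capitals because HAI1 spanned the widest range of levels in these libraries.
HAI1 site (chr5:23896807-23896836, reverse strand): taggagaagtacgttttaCACGTGgacaca

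No stretch of 64 bases of any of the 9 genes was found elsewhere in the genome, so their reads could be placed. ABI1 (chr4:13219915-13222376, reverse strand) overlaps a neighbour, AT4G26070, on the opposite strand, which strand-specific counting keeps apart, and none of the other 8 overlaps an annotated locus. In the reference annotation HAB1 (chr1:27389948-27393327) has 5 transcripts, ABI2 has 3 and HAB2, AHG1 and HAI1 have 2 each, and the counts were summed over them.

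Compared per length, in RPKM (the CPM divided by the length of the locus in kilobases, introns included), ABI1 had the highest median over the 12 libraries at 30.7 (range 21.7 to 112). PP2CA followed at 20.5 (14.4 to 72.8), HAB2 at 17.3 (12.2 to 24.2), HAB1 at 8.79 (3.51 to 49.3) and ABI2 at 6.77 (4.24 to 42.6). HAI1, a phosphatase known from osmotic stress, was at 2.39 RPKM in the median but reached from 0.0485 to 150, and HAI2 was at 1.33 (0.551 to 17.2). Each of these ranges overlapped that of the next in the order. The order is that of the medians, and members were not compared within each library.

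AHG1 and HAI3, which are best known from seeds and from osmotic stress respectively, were at the limit of detection in these leaves. AHG1 had 1, 1 and 0 counts in N-r1, N-r2 and N-r3, 6, 3 and 0 in N+T, 0, 0 and 1 in P and 5, 5 and 1 in P+T. HAI3 had 2, 4 and 0 counts in N, 1, 1 and 1 in N+T, 0, 4 and 2 in P and 5, 5 and 2 in P+T. With 23 and 27 counts in all, no fold was computed for either gene.

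The question of the first comparison was how unprimed leaves respond to EL. Transcripts of all 7 testable phosphatases had a higher mean in N+T than in N, by fitted folds from 1.37 (HAB2) to 68.2 (HAI1), but of these only HAB1 passed the test. Of all loci tested, 15.2% were called in this comparison in either direction and 7.74% as higher, against 1 of the 7 members. With all 12 libraries the count was 0 of 7 and the share 3.99%, and DESeq2 on the 10 libraries called 5 of 7 (ABI1, ABI2, HAB1, HAI1 and HAI2) and 25.1%. The tested N+T libraries lay wholly above the tested N libraries in 5 of 7 members (ABI2, HAB1, HAB2, HAI1 and HAI2), against 33.3% of all loci. The median log2 fold change was 2.30 over the members and −0.0042 over all loci tested, and 49.7% of all loci had a value above 0.

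HAB1, a close relative of ABI1 that inhibits OST1 and other SnRK2 kinases, was at 24.9 and 11.9 CPM in N-r1 and N-r2 and at 166 CPM (N+T-r1) and 59.9 CPM (N+T-r2) in N+T. The omitted libraries were at 26.0 CPM (N-r3) and 35.1 CPM (N+T-r3), so that the N+T libraries lay above all N libraries with and without them. The log2 fold change was 2.65 ± 0.64 (SE, 2 libraries against 2, edgeR adjusted p = 0.0312). With all 12 libraries it was 2.06 ± 0.58 (adjusted p = 0.0737), and HAB1 was then the only one of the 7 members whose groups did not overlap, against 10.4% of all loci with N+T higher. Without N+T-r1 it was 1.70 (adjusted p = 0.158, with 2.03% of all loci called), without N-r1 3.28 (0.0996, 0.584%), without N-r2 2.203 (0.207, 0.00556%) and without P+T-r2 2.65 (0.0530, 8.79%), so that the call, but not the direction, rested on each of these libraries, and most calls over all loci were lost with either N library. Without N+T-r2, 5 of 7 members were called, with 14.7% of all loci.

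HAI1, the most variable member, was at 5.85, 0.651 and 14.8 CPM in N-r1, N-r2 and N-r3 and at 381, 35.8 and 0.301 CPM in N+T-r1, N+T-r2 and N+T-r3, the last of these on 1 count. N+T-r1 was the highest and N+T-r3 the lowest of these 6 libraries, so the groups overlapped once the omitted libraries were counted. The log2 fold change over the tested libraries was 6.09 ± 2.35 (edgeR adjusted p = 0.105), and 3.51 without N+T-r1. HAI1 made up 31.9% of the summed CPM of the 9 phosphatases in N+T-r1 and was then their most abundant transcript, against 0.390% in N-r2 and 0.158% in N+T-r3.

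ABI2, the second of the ABA-insensitive phosphatases, was at 15.4, 11.0 and 26.8 CPM in the 3 N libraries and at 107, 21.2 and 12.5 CPM in the 3 N+T libraries. The tested N+T libraries lay above the tested N libraries, and the omitted pair lay in the opposite order. Its log2 fold change was 2.30 ± 0.69 (edgeR adjusted p = 0.0559), and 0.68 without N+T-r1.

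ABI1, the member with the highest level per length, was at 83.7, 55.9 and 171 CPM in N and at 276, 83.7 and 53.5 CPM in N+T. N-r1 and N+T-r2 met at 83.7 CPM, and the log2 fold change was 1.39 ± 0.49 (edgeR adjusted p = 0.0833), or 0.26 without N+T-r1. HAI2 was at 2.71, 2.11 and 4.78 CPM in N and at 35.8, 2.80 and 1.49 CPM in N+T, so that its log2 fold change of 3.02 ± 1.12 (edgeR adjusted p = 0.0955) came down to 0.22 without N+T-r1.

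PP2CA, also known as AHG3 and active in guard cells and in germination, was at 60.5, 36.4 and 134 CPM in N and at 151, 40.5 and 29.7 CPM in N+T, and the groups overlapped. Its log2 fold change was 1.00 ± 0.53 (edgeR adjusted p = 0.213), which turned to −0.26 without N+T-r1 and to −0.062 with all 12 libraries. HAB2, the steadiest member, was at 48.0, 48.7 and 62.4 CPM in N and at 75.8, 55.5 and 54.7 CPM in N+T. Its highest value over all 12 libraries was 1.99 times its lowest, against 14.0 times for HAB1.

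**Figure D1:**
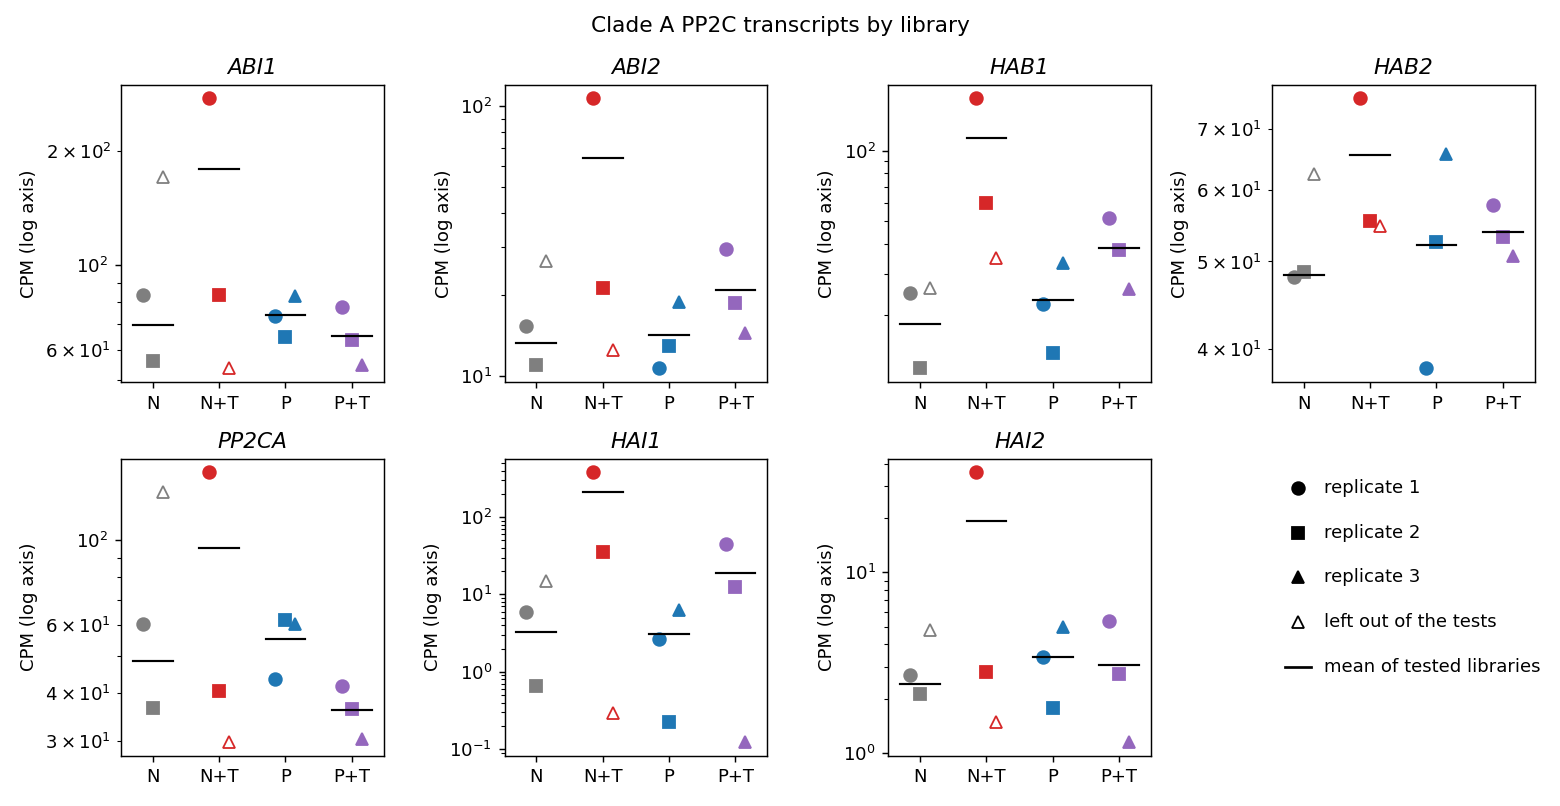
CPM on a log axis, with a separate range for each gene, in every library for the 7 members that passed the filter. Circles, squares and triangles are replicates 1, 2 and 3, open symbols are the libraries left out of the tests, and bars are means of the tested libraries. In all 7 panels N+T-r1 is the highest point, at 381 CPM for HAI1 and 75.8 CPM for HAB2.

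N+T-r1 was the highest of the 12 libraries for 7 of 7 members, against 19% of all loci tested. Within N+T, the members were highest in N+T-r1 and lowest in N+T-r3 in 7 of 7 cases (25.7% of all loci), and within P+T they were highest in P+T-r1 and lowest in P+T-r3 in 7 of 7 cases (20.8%). Both held together for 11.2% of all loci tested. This way of counting was chosen after the values had been seen, and the labels state no link between same-numbered plants of different groups. With all 12 libraries, deviations from the group means over all loci tested correlated at 0.62, −0.31 and 0.70 between N+T and P+T in replicates 1, 2 and 3. Whether same-numbered plants share a factor was not tested.

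HSP101 did not separate these libraries in the same way. N+T-r3 had 2931 CPM of HSP101 and 0.301 CPM of HAI1, and P+T-r3 had 1253 CPM of HSP101 and 0.123 CPM of HAI1, while N+T-r2, with the lowest HSP101 of the triggered libraries (951 CPM), had 35.8 CPM of HAI1. HAB1 was at 35.1 CPM in N+T-r3 and at 25.9 CPM in P+T-r3. High HSP101 was thus measured both in libraries with high and in libraries with low HAI1, which describes 1 gene. ZAT10 was at 127, 12.8 and 8.62 CPM in replicates 1, 2 and 3 of N+T and at 12.6, 13.9 and 3.77 CPM in those of P+T. APX2 was at 8.78, 1.05 and 13.1 CPM in N+T and at 3.52, 6.14 and 1.68 CPM in P+T. Whether HAI1 follows the strength of the EL response was not tested.

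**Figure D2:**
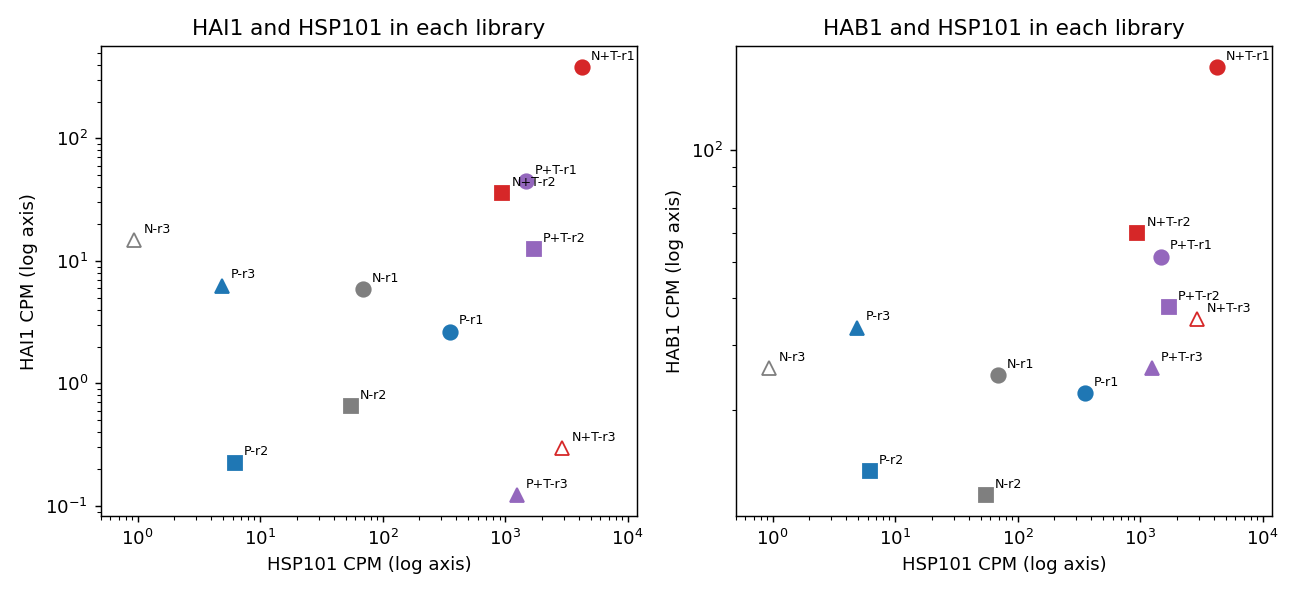
CPM of HAI1 (left) and HAB1 (right) against CPM of HSP101, all on log axes, with 1 point per library labelled by group and replicate and open symbols for the libraries left out of the tests. The 6 triggered libraries lie to the right, from 951 CPM of HSP101, and among them HAI1 reaches from 0.123 to 381 CPM and HAB1 from 25.9 to 166 CPM.

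The same EL treatment was then asked of primed plants. None of the 7 members passed the test in P+T against P, where 4.48% of all loci were called in either direction. At an unadjusted p below 0.05 the count was also 0 of 7, against 21.7% of all loci, and DESeq2 called 0 of 7 and 12% of all loci. Log2 fold changes were between −0.61 (PP2CA) and 2.64 (HAI1), with a median of 0.055 over the members and of −0.011 over all loci.

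HAI1 was at 2.65, 0.226 and 6.29 CPM in P-r1, P-r2 and P-r3 and at 44.9, 12.5 and 0.123 CPM in P+T-r1, P+T-r2 and P+T-r3. Both P+T-r1 and P+T-r2 lay above all primed libraries and P+T-r3 lay below them, at 3 counts in a library of 25054092. The log2 fold change was 2.64 ± 1.65 (edgeR adjusted p = 0.400).

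HAB1 was at 22.3, 13.8 and 33.4 CPM in P and at 51.7, 37.9 and 25.9 CPM in P+T, so the groups overlapped by 1 library on each side, and the log2 fold change was 0.74 ± 0.49 (edgeR adjusted p = 0.433). Of the 7 tested members, PP2CA was the only one whose groups did not overlap, at 43.4, 61.8 and 60.5 CPM in P and at 41.6, 36.4 and 30.3 CPM in P+T, with P+T lower, as in 13.2% of all loci. Its log2 fold change was −0.61 ± 0.43 (edgeR adjusted p = 0.465). ABI1 went from between 64.8 and 83.2 CPM in P to between 54.6 and 77.7 CPM in P+T, ABI2 from 10.6 to 18.8 CPM to 14.4 to 29.6 CPM, HAB2 from 38.1 to 65.7 CPM to 50.8 to 57.7 CPM and HAI2 from 1.77 to 4.96 CPM to 1.15 to 5.35 CPM, and all 4 pairs of ranges overlapped.

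**Figure D3:**
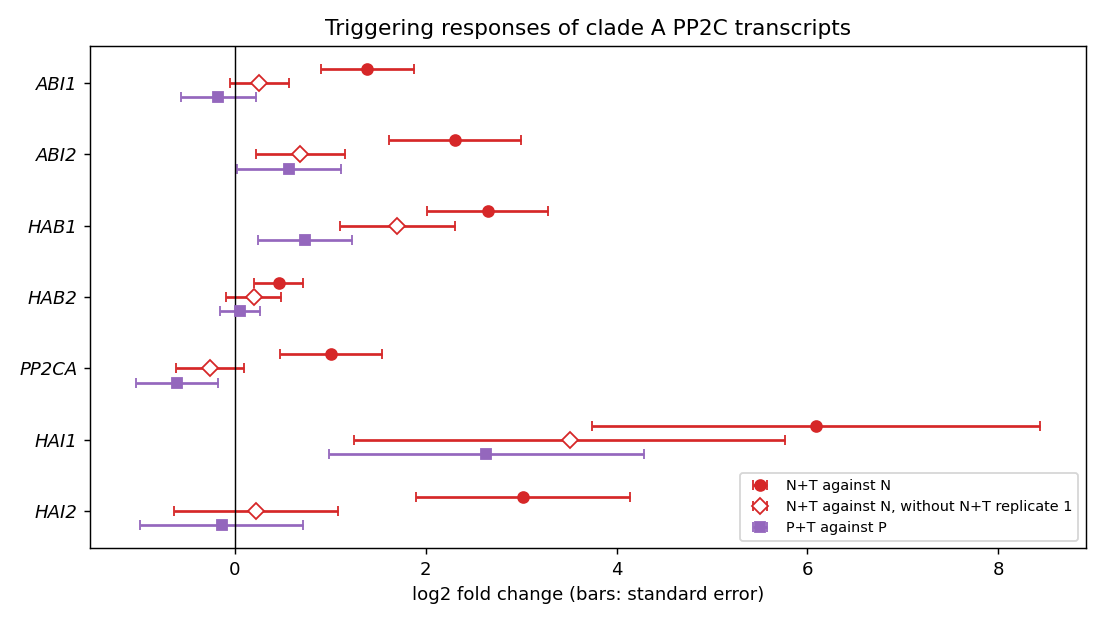
Log2 fold change with its standard error for the 7 tested members in N+T against N (filled circles), the same without N+T-r1 (open diamonds) and P+T against P (squares). For HAI2 the naïve response is 3.02 with and 0.22 without N+T-r1, and for HAB1 it is 2.65 and 1.70.

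Priming on its own was examined in plants that had not been triggered. No member passed the test in P against N, and no locus did among the 17986 tested (0%), while at an unadjusted p below 0.05 the counts were 0 of 7 members and 8.76% of all loci. DESeq2 called 1.88% of all loci and 0 of 7 members. The members' log2 fold changes were between −0.011 (HAI1) and 0.50 (HAI2), with standard errors from 0.23 to 1.85.

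Between the triggered groups, P+T was below N+T in all 7 members by the fitted values, with log2 fold changes from −0.29 (HAB2) to −3.47 (HAI1) and a median of −1.57, against a median of 0.011 and 49% below 0 over all loci. None of these passed the test with edgeR, and no locus did (0%). At an unadjusted p below 0.05 the counts were 5 of 7 members (ABI1, ABI2, HAB1, PP2CA and HAI2) and 20% of all loci. DESeq2 called ABI1 (log2 fold change −1.50, adjusted p = 0.0346), with 4.04% of all loci called.

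Of the 7, ABI1 and HAB1 were those whose tested libraries did not overlap between N+T and P+T (20.8% of all loci with P+T lower), and with N+T-r3 included none of the 7 was so placed (3.78%). Without N+T-r1 the log2 fold changes were −0.34 for ABI1, −0.62 for HAB1, −0.0087 for ABI2, −0.15 for PP2CA and 0.15 for HAI2. Without N+T-r2, when N+T-r1 alone stood for the naïve triggered plants and was assumed to vary like the other groups, 3 of 7 members were called (ABI1, ABI2 and PP2CA), with 1.26% of all loci.

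The difference between both triggering responses was tested as the interaction of triggering with priming. The estimates were below 0 for all 7 members, from −0.40 ± 0.33 (HAB2) to −3.46 ± 2.57 (HAI1), with a median of −1.74 against −0.014 over all loci, of which 51.1% were below 0. None passed the test (edgeR adjusted p from 0.272 to 0.554), and 0.00556% of all loci were called. At an unadjusted p below 0.05 the counts were 3 of 7 (ABI1, HAB1 and PP2CA) and 16.7% of all loci, DESeq2 called 0 of 7 and 4.19% of all loci, and without N+T-r1 the estimates were between −0.97 (HAB1) and −0.12 (ABI2). All these contrasts draw on the same few N and N+T libraries.

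The pathway around the phosphatases was described from lists of genes by role, and each count of genes that passed is to be read against the 15.2% of all loci called in N+T against N, the 4.48% in P+T against P, 0% in both P against N and P+T against N+T and 0.00556% for the interaction. The 10 list genes called in N+T against N kept their direction under all alternatives, but none was called without N-r1 or without N-r2, only SNRK2.8 was without N+T-r1 and 4 (EEL, ABF1, HIS1-3 and CYP707A4) were with all 12 libraries. Of the 5 called in P+T against P, 2 (EEL and ABF1) were called with all 12 libraries, and none was without P+T-r2 or without P+T-r3, when 0.795% and 0.428% of all loci were called. Of 14 ABA receptors, which inhibit the phosphatases when ABA is bound, 8 were testable, and none passed the test in any of the 5 contrasts. In N+T against N their log2 fold changes were between −1.08 and 1.603 with a median of 0.018. Of 5 genes for proteins that act on clade A PP2Cs, only DOG1 passed a test, in P+T against P. DOG1, which is known to bind AHG1 and PP2CA in seeds, was at 0.717, 4.14 and 2.64 CPM in P and at 0.0435, 0.116 and 0.164 CPM in P+T, with log2 fold change −4.44 ± 0.83 (edgeR adjusted p = 0.0251). The P+T libraries held 1, 3 and 4 counts of it. DOG1 passed the filter on low counts only with the omitted libraries counted, and with that filter over the 10 tested libraries it was not tested.

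Among 10 SnRK2 kinases, the targets of the phosphatases, 9 were testable, and SNRK2.8 alone passed the test, in N+T against N (1 of 9, against 15.2% of all loci). It was at 3.21 and 2.60 CPM in the tested N libraries and at 11.0 and 29.8 CPM in the tested N+T libraries, and N+T-r2, not N+T-r1, was the higher (log2 fold change 2.84 ± 0.46, edgeR adjusted p = 0.0111). The omitted N+T-r3 was at 5.95 CPM and N-r3 at 6.11 CPM.

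Among 8 ABF/ABI5 factors, 7 were testable and the same pair passed the test in both triggering responses. EEL rose with log2 fold changes of 2.71 ± 0.53 in N+T and 2.53 ± 0.42 in P+T (edgeR adjusted p = 0.0181 and 0.0185), from between 0.339 and 0.772 CPM in the 6 untriggered libraries to between 2.51 and 8.92 CPM in the 6 triggered ones, without overlap. ABF1 fell by 1.18 ± 0.24 and by 1.18 ± 0.19 on the log2 scale (edgeR adjusted p = 0.0197 and 0.0180), from between 25.7 and 45.3 CPM to between 11.1 and 17.6 CPM. These factors separated triggered from untriggered libraries, N+T-r3 and P+T-r3 included, which HAI1 did not.

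Of 12 genes known to respond to ABA, 11 were testable, and 3 passed the test in N+T against N, where 15.2% of all loci did. The log2 fold changes of those that did not pass went both ways, from −1.63 (RD29A) to 8.17 (ABR, on 1 and 0 counts in N-r1 and N-r2). HB-7 and HB-12, homeobox factors known to be induced by ABA and known in turn to promote clade A PP2C genes, rose with log2 fold changes of 4.06 ± 1.13 and 3.20 ± 0.82 (edgeR adjusted p = 0.0456 and 0.0374). HB-7 was at 72.7 CPM in N+T-r1, 11.4 in N+T-r2 and 1.78 in N+T-r3, and HB-12 at 79.3, 24.3 and 6.84 CPM, so that N+T-r1 was the highest and N+T-r3 the lowest of N+T for both. In N-r1, N-r2 and N-r3 HB-7 was at 2.45, 2.64 and 20.3 CPM and HB-12 at 6.98, 4.49 and 24.8 CPM, so the groups overlapped once N-r3 was counted. The log2 fold changes were 2.16 and 2.09 without N+T-r1 and 1.76 and 1.61 with all 12 libraries (edgeR adjusted p = 0.243 and 0.181, and 0.434 and 0.329). HIS1-3, a linker histone gene known from drought, fell by 2.42 ± 0.46 in N+T and by 1.43 ± 0.33 in P+T on the log2 scale (edgeR adjusted p = 0.0170 and 0.0498).

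Of 10 ABA synthesis genes 7 were testable and none passed the test in any contrast, against the shares of all loci given above. NCED3, the rate-limiting dioxygenase, was at 18.7, 8.004 and 18.9 CPM in the 3 N libraries and at 145, 10.6 and 5.65 CPM in the 3 N+T libraries, so that N+T-r1 stood alone. Its log2 fold change in N+T against N was 2.57 ± 1.30 (edgeR adjusted p = 0.194), and −0.33 without N+T-r1. Of 8 genes of ABA breakdown and transport, ABCG40, an importer of ABA in guard cells, had a log2 fold change of 9.69 ± 2.65 in N+T against N (edgeR adjusted p = 0.0436). It was at 0.126 and 0.358 CPM in the tested N libraries (2 and 11 counts) and at 332 and 111 CPM in the tested N+T libraries. N+T-r3 held 0 counts, which at its depth allows up to 3 counts. N-r3 held 42 counts (1.65 CPM), so the omitted pair lay in the opposite order. DESeq2 did not call ABCG40 in N+T against N. CYP707A4, an ABA hydroxylase, rose in both responses, by log2 fold changes of 2.88 ± 0.71 and 2.40 ± 0.54 (edgeR adjusted p = 0.0338 and 0.0460), and N+T-r3, at 8.62 CPM, lay with the other triggered libraries (6.21 to 19.6 CPM).

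For the sake of comparison, 9 PP2Cs of clade D, which act on plasma membrane proton pumps, were all testable. In N+T against N, AT5G06750 rose (log2 fold change 1.55, edgeR adjusted p = 0.0329) and AT5G66080 fell by 2.41 on the log2 scale (adjusted p = 0.0462), and the median over the clade was 0.0060 against 2.30 for clade A, or −0.058 against 0.26 without N+T-r1. Of 4 clade B members 2 were testable, at 1.22 and 2.09, and neither passed the test. The difference between the clades was not tested.

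Across the 10 tested libraries, Pearson correlations of log2 CPM between the members ranged from 0.56 (PP2CA with HAI1) to 0.95 (ABI1 with HAI2). ABI2 and HAB1 were at 0.93 and HAB1 and HAI1 at 0.90. The libraries share the treatment and N+T-r1 as an extreme point, and the rank correlation was 0.16 for HAB1 with PP2CA and 0.93 for ABI2 with HAB1, so the values are descriptions only.

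For each member the 3 other loci with the most similar profile over these 10 libraries were listed by Pearson correlation. For HAB1 they were CYP91A2 (0.99), SOUL-1 (0.98) and AT5G48530 (0.98), and for HAI1 they were AT4G39670 (0.97), CYP81D8 (0.97) and the nitrate transporter gene NRT1.8 (0.96). For ABI1 they were AT5G41100 (0.99), the syntaxin gene SYP21 (0.98) and AT2G21180 (0.97), for ABI2 AGP1 (0.97), TBL9 (0.97) and the calmodulin-like gene CML23 (0.97), and for HAI2 RDUF2, AT1G71140 and HEMA2 (0.97 each). HAB2 was closest to the sucrose synthase gene SUS3 (0.95), the guard cell anion channel gene ALMT12 (0.95) and the metacaspase gene MC9 (0.94), and PP2CA to AT4G33467 (0.96), pEARLI4 (0.96) and AT4G30780 (0.95). None of these 21 loci was the neighbour of 2 members.

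DNA methylation of the 9 genes was measured in unstressed WT and strs2 plants, which answers whether the insertion line differs from WT at these loci before any EL. Within gene bodies, CG methylation was present in HAB1 and HAB2 and was at most 2.92% in any plant in the other 7 genes. In HAB1 it was 39.2%, 42.8% and 38.9% of calls in replicates 1, 2 and 3 of WT and 33.0%, 36.9% and 39.1% in those of strs2, on 945 to 1523 calls per plant. In HAB2 it was 26.5%, 24.9% and 23.1% in WT and 23.9%, 25.0% and 27.6% in strs2, and in both genes the genotypes overlapped.

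Over all protein-coding genes the median CG level of the gene body was 4.57% in WT, and 39.7% of genes reached at least 10%, as HAB1 and HAB2 did. Along HAB1, 6 of 22 windows of 200 bases (the first starting 1 kb before the gene) were methylated at 50% or more of CG calls in WT, with a maximum of 88.5%, and along HAB2 3 of 21 were, with a maximum of 95.5%. These windows lay in the middle of the gene, from 1200 bases after the start of HAB1 and from 1600 bases after that of HAB2. In the 1 kb upstream of the 9 genes, which holds the promoters printed above, no context passed 1.35% in any plant.

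AHG1, nearly silent in these leaves, carried a single methylated window inside its body. The window lies in an intron of 614 bases (chr5:21027964-21028577) and is shown because methylation there was in CG and CHH context together (H being A, C or T). Capitals mark its 2 CG dinucleotides.
AHG1 intron window (chr5:21028005-21028204, forward strand): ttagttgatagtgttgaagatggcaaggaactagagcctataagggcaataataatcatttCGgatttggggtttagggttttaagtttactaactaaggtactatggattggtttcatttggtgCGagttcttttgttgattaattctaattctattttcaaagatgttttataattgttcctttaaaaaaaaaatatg

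In this window 100%, 89.5% and 79.5% of CG calls were methylated in WT and 100%, 90.9% and 85.0% in strs2, on 19 to 39 calls per plant. CHH calls were methylated at 43.4%, 65.1% and 37.8% in WT and at 26.8%, 35.7% and 42.9% in strs2, on 189 to 555 calls per plant, and the genotypes overlapped. Over the whole AHG1 gene body the CHH level was 2.71% to 4.23% per plant, against 0.24% to 1.02% in the other 8 genes, and 4.91% of all protein-coding genes reached 2% in WT. In CHG context the window held at most 11 calls per plant, too few for a level, and its CHG point in the plot of methylation along the genes rests on these.

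**Figure D4:**
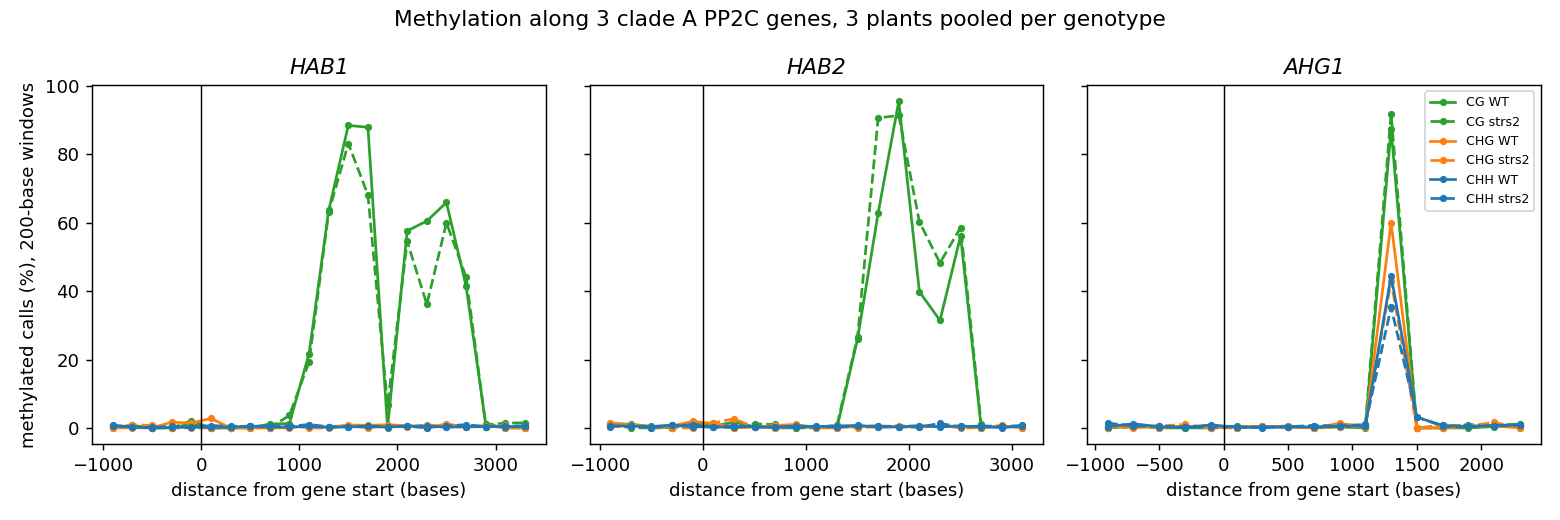
Percent of methylated calls in 200-base windows against distance from the gene start in bases for HAB1, HAB2 and AHG1, with the calls of 3 plants pooled per genotype. Lines are solid for WT and dashed for strs2, and colours give CG, CHG and CHH context. HAB1 and HAB2 are methylated in CG context only, in mid-body, and AHG1 in 1 window, at 87.5% of CG calls in WT.

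Summed over the bodies of the 9 genes, the CG level was 6.59%, 5.93% and 6.14% in WT and 5.70%, 6.30% and 6.82% in strs2, the CHG level was 0.483% ± 0.088 in WT and 0.492% ± 0.073 in strs2 (SD, n = 3), and the CHH level was 0.792% ± 0.167 and 0.825% ± 0.125 (SD, n = 3). The groups overlapped in each context. Exact permutation tests over the plants, two-sided, gave p = 0.9 for CG, 0.9 for CHG and 0.7 for CHH, and 0.9 for each after adjustment over the 3 contexts, where 3 plants against 3 allow no p below 0.1.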

How the data were processed

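The members and gene lists were chosen with earlier results of these data known. Trimmed mRNA-seq reads were aligned to TAIR10 by the authors with Subread 1.6.2, and unique alignments were counted strand-specifically for each Araport11 locus with featureCounts (1.5.0-p1 in the file headers). The deposited values are raw counts per locus, 1 file per library. Chloroplast (133), mitochondrial (152) and nuclear rRNA (4) loci were removed, with 0.0521% to 2.56% of the counts of a library, and 17986 loci above 1 CPM in 3 or more of all 12 libraries were tested. CPM and RPKM are scaled by trimmed mean of M-values (TMM) factors over all 12 libraries, and RPKM uses the length of the locus from start to end. Groups were compared with edgeR 4.0.16 under R 4.3.3 (limma 3.58.1), by its quasi-likelihood F test with legacy estimation, on the 10 libraries that the authors tested, with 1 mean per group, no covariate and Benjamini-Hochberg adjustment over all 17986 loci in each of 5 contrasts, at a false discovery rate of 0.05. The edgeR and DESeq2 1.42.0 steps were tested on simulated data, where DESeq2 made more false calls than edgeR and also recovered more of the changed loci. Correlations used log2 CPM with a prior count of 2.

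For MethylC-seq, the authors aligned reads to TAIR10 with Bismark 0.14.5 and Bowtie2 2.2.9. The deposited counts of methylated and of all calls per cytosine, in 3 contexts for 6 plants, were summed over cytosines read more than 3 times, and a level is methylated calls over all calls. Their sums over the 9 genes were between 10804 and 16257 CG calls per plant. Every listed nuclear cytosine fell on C or G of the TAIR10.1 reference, and 32904 of 32905 matched nuclear loci had the same coordinates there, so positions are given on TAIR10. Gene starts and exons are those of RefSeq.

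Named genes are the 9 members, up to 3 genes of each pathway list that passed a test, and for each tested member the 3 loci with the highest Pearson correlation. HSP101 was added as a check of the labels, and NCED3, RD29A and ABR were named after their values were seen. Alternatives were all 12 libraries, DESeq2, other size factors and filters, the newer form of the test, a replicate block and leaving out each library or plant. The same alternatives were applied to the named pathway genes, and N+T-r1 was left out of the clade medians, after the values had been seen. For methylation they were a depth of at least 10, adding 1 kb upstream and a mean over cytosines. Plants were independent within a group, and replicate numbers were shared between groups without a stated link. Protein sequences were not used here.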

Additional observations from a re-analysis of the deposited data

Results flagged for a closer look

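HAB1 in N+T-r3, a library that entered no test, was at 35.1 CPM, above all 3 naïve libraries (11.9 to 26.0 CPM). It was looked at again because it is a signal outside the libraries tested. It was the only member on more than 3 counts for which N+T-r3 lay above every N library, and it lay below N+T-r1 and N+T-r2 (166 and 59.9 CPM). No group held more than 3 libraries, so no single library was compared with its group by a formal criterion.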

How the results depend on the processing

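In N+T against N, 1 of 7 members passed the test (15.2% of all loci), against 0 with all 12 libraries (3.99%) and 5 with DESeq2 (25.1%), and 0 to 5 when single libraries were left out (0.00556% to 23.2%). In P+T against N+T, 0 passed (0%), against 1 with DESeq2 (4.04%) and 0 to 3 without single libraries (0% to 1.26%). No member passed in the other 3 contrasts under any alternative run. Deviations of same-numbered libraries correlated between −0.33 and 0.41 in the 10 libraries (median 0.22, against −0.13 for different numbers). There N and N+T hold 2 libraries each, whose deviations mirror each other. With all 12 libraries the range was −0.37 to 0.70 (median −0.064), against −0.73 to 0.62 (median −0.0028) for different numbers. The highest same-numbered values were those of N+T with P+T in replicates 3 and 1. Negative pairs occurred in both sets and the labels state no link, so the numbers were not taken to pair the libraries. The replicate block gave 1 member called in N+T against N with 10 libraries (15.7% of all loci) and 0 with 12 (3.21%). Signs turned for members that did not pass the test. With all 12 libraries PP2CA was at −0.062 on the log2 scale in N+T against N. In the contrast of P with N, ABI1 was at −0.49, ABI2 at −0.32, HAB2 at −0.025 and PP2CA at −0.48. With the replicate block on 12 libraries these were −0.15, −0.45, −0.27, −0.027 and −0.39, and HAI2 was at −0.00070 in P against N. HAI1 in P against N was at 0.0088 without a filter and at 0.19 with the block on 10 libraries. Leaving out single libraries gave −0.26 to 1.67 for PP2CA in the naïve triggering response, −0.13 to 0.26 for HAB2 and −0.80 to 0.25 for HAI2 in P+T against P, and −3.57 to 0.15 for HAI2 in P+T against N+T. In P against N the ranges were −0.18 to 0.41 (ABI1), −0.16 to 0.37 (ABI2), −0.10 to 0.97 (HAB1), −0.092 to 0.29 (HAB2), −0.13 to 0.61 (PP2CA) and −1.06 to 2.24 (HAI1). The difference of strs2 from WT in CG, 0.054 percentage points, was 1.36 at a depth of at least 10 and −0.22 to 0.34 without single plants. The causes of these shifts were not tested. N+T rests on 2 tested libraries, 1 of them shallow, and AHG1 and HAI3 were too sparse for a fold.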
